A study of Mus musculus with 6 samples.

Results

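The 9 genes described here encode the enzymes of the pentose phosphate pathway and Tigar, an enzyme that restrains glycolysis and so favours this pathway. They were chosen by their known function, with earlier results of these data known. The list holds 4 enzymes of the oxidative arm (G6pdx, H6pd, Pgls and Pgd), 4 enzymes of the non-oxidative arm (Rpia, Rpe, Tkt and Taldo1) and Tigar. All 9 symbols matched exactly 1 of the 50686 gene identifiers in the count files, and all 9 passed the filter on low counts that left 16729 genes for testing.

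The oxidative arm takes glucose 6-phosphate from glycolysis and oxidises it to ribulose 5-phosphate, and it reduces NADP to NADPH on the way. The non-oxidative arm interconverts sugar phosphates and links ribose 5-phosphate, the precursor of nucleotides, back to fructose 6-phosphate and glyceraldehyde 3-phosphate of glycolysis. Pluripotent and other fast-growing cells are known for high glucose use, and they draw on the pathway for ribose and for NADPH, which keeps glutathione reduced and drives lipid synthesis.

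The samples were embryoid bodies, which are aggregates formed in suspension, of mouse induced pluripotent stem cells (iPSCs) that had been reprogrammed from gingival fibroblasts. Every sample, control or loaded, had been exposed to all-trans retinoic acid and plated on gelatin, and force was applied in serum-free medium. The ICF group (3 samples) received intermittent compressive force of 1.5 g per square centimetre at 0.23 Hz for 24 h, and the control group (3 samples) was left unloaded for the same time. The comparison asks how the transcripts of each arm of the pathway differed after loading. The cells had been grown on SNL feeder cells, a fibroblast line that was removed by selective trypsin treatment before the aggregates formed. The labels number the samples of each group as donor 1, 2 and 3, whereas the study's methods speak of independent experiments and mention no donors, so whether they are separate iPSC lines is not known. For RNA extraction the labels name an RNeasy kit and the methods Ribospin II. In such bulk samples, fewer cells of a type and less RNA per cell cannot be told apart.

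Between 28711166 and 34194413 reads were counted on genes per library. ICF replicate 3 stood apart, because 89.0% of its nonzero counts could be divided by 4, and in the other 5 libraries this share was 20.3% to 21.5%. It also had a count for fewer genes, 20802 against 24340 to 24889. Of its 9 counts for the pathway genes, 6 were multiples of 4, and the exceptions were G6pdx, Pgd and Rpe. Dividing this library's counts by 4 changed no call among the 9 genes. Both samples numbered 3 had more reads that matched no gene, 6.24% in the control and 6.04% with ICF, against 4.09% to 4.52% in the others. Levels are given as CPM, counts scaled to library size after TMM normalization, which adjusts libraries for their composition. Of 8 pluripotency markers tested, Tdgf1 fell and the other 7 did not pass the test, and their summed level was 3351 to 4043 CPM in the control and 3031 to 3342 CPM with ICF. Of the 7 tested of 8 fibroblast or feeder markers, Col1a1 and Col3a1 rose and none fell, with sums of 41.0 to 68.2 CPM and 69.3 to 92.4 CPM, and their part in the results below was not tested. With 1 library left out, Col1a1 passed in 3 of 6 fits and Col3a1 in none. Lum, another fibroblast marker, had 0 to 4 reads per library. Neural markers (6 of 6 tested) and mesodermal markers (4 of 6 tested) had no change past the threshold, and Sox17 was the 1 of 6 endodermal markers to fall, a call kept in 1 of 6 fits with a library left out. Of 6 blood and endothelial markers, 3 were tested and none passed, and Hba-x was at 0 in every library.

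RefSeq start regions show the sequence in front of the genes the results turn on. Each window covers 250 bases before and 50 bases after a start, and the 9 genes have 10 windows, because Pgd has 2. The motifs searched on both strands were ACGTG (the core of hypoxia response elements), TGACNNNGC (the core of antioxidant response elements), GGGCGG (the GC box), CCAAT (the CCAAT box) and the p53 decamer. Those of Rpe and Tkt are shown because these genes moved furthest, that of Tigar because of its link to p53, and that of G6pdx because it held both response cores. Capitals mark motif matches, on either strand. The windows are Rpe chr1:66700581-66700880 on the plus strand, Tkt chr14:30548881-30549180 on the plus strand, Tigar chr6:127109503-127109802 on the minus strand and G6pdx chrX:74428831-74429130 on the minus strand, all of GRCm38.p6 and written 5′ to 3′.
Rpe: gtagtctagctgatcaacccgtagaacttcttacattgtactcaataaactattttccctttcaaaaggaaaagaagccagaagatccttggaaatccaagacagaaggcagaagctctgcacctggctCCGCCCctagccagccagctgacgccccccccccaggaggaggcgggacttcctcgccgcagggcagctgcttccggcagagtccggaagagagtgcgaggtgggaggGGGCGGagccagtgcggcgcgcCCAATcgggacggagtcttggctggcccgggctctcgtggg
Tkt: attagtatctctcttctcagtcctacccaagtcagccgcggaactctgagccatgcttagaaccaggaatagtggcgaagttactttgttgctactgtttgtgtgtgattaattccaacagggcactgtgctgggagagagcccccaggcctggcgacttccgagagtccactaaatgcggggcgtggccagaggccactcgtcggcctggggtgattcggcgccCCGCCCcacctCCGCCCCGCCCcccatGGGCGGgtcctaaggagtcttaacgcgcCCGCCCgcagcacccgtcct
Tigar: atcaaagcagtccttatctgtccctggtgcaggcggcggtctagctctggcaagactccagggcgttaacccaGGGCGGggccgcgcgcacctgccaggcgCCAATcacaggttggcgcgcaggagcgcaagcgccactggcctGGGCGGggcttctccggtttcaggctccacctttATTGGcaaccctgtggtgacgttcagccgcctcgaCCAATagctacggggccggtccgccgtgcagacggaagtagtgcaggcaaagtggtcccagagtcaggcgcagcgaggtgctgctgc
G6pdx: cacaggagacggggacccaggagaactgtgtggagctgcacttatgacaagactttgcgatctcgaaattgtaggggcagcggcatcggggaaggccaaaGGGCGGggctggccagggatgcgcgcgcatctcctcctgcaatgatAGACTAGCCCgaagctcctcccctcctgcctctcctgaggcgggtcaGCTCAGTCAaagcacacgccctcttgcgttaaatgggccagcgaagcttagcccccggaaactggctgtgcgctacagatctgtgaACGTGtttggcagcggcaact
The Tkt window held 5 GC boxes, of which 2 overlap by 1 base, and the Rpe window held 2 GC boxes and 1 CCAAT box. In the Tigar window there were 2 GC boxes and 3 CCAAT boxes, and the p53 decamer was not found in these letters. GC boxes were present in 8 of the 10 windows, against 35.7% of 32851 windows of the same length over all genes, and CCAAT boxes in 5 of 10, against 37.4%. The hypoxia core was found in 1 window (G6pdx), against 19.6% of all windows. The antioxidant core was found in 2 windows (G6pdx and the second of Pgd), against 12.4%, and the p53 decamer in 1 (G6pdx), against 8.36%. The windows of Tkt, G6pdx and H6pd and the second of Pgd begin inside the GENCODE gene model, so they may not cover the start in use. A match is a description of the letters and not a site.

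Of the 9 genes, Rpe passed the threshold of 0.05 and rose with ICF, and none fell, by edgeR's quasi-likelihood test with Benjamini-Hochberg adjustment over all 16729 genes. Over all genes, 3.47% rose and 4.38% fell. Tkt had the largest difference, with a mean change of -25.8%, and it missed the threshold. With the donor number as a block, which compares each ICF sample with the control of the same number, Rpe rose and Tkt, Pgls and Rpia fell. In that fit 14.6% of all genes rose and 15.3% fell. DESeq2 called Rpe up and Tkt down, against 6.38% and 7.5% of the genes it gave an adjusted p. In the blocked fit and with DESeq2, calls of both directions fell within the non-oxidative arm, and the oxidative arm had 1 call, of Pgls in the blocked fit. The study itself listed the pentose phosphate pathway of the KEGG database among pathways enriched in its downregulated genes. That set is wider than the 9 genes here, as it counted more downregulated genes than these. The study also called its genes with DESeq2, whereas the first fit above used edgeR.

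The ICF and control samples did not overlap in 3 of the 9 genes (33.3%), which were Rpe, Tkt and Tigar. This share was close to the 31.4% of all genes without overlap. The 3 pairs of same-numbered samples differed with the same sign in 7 of the 9 genes (77.8%), against 56.6% of all genes, and Pgd and Taldo1 were the exceptions. With 3 samples against 3, an exact two-sided permutation test cannot give a p below 0.1. That value was reached by Rpe, Tkt and Tigar, and the other 6 genes gave exact permutation p of 0.2 to 0.7.

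**Figure D1:**
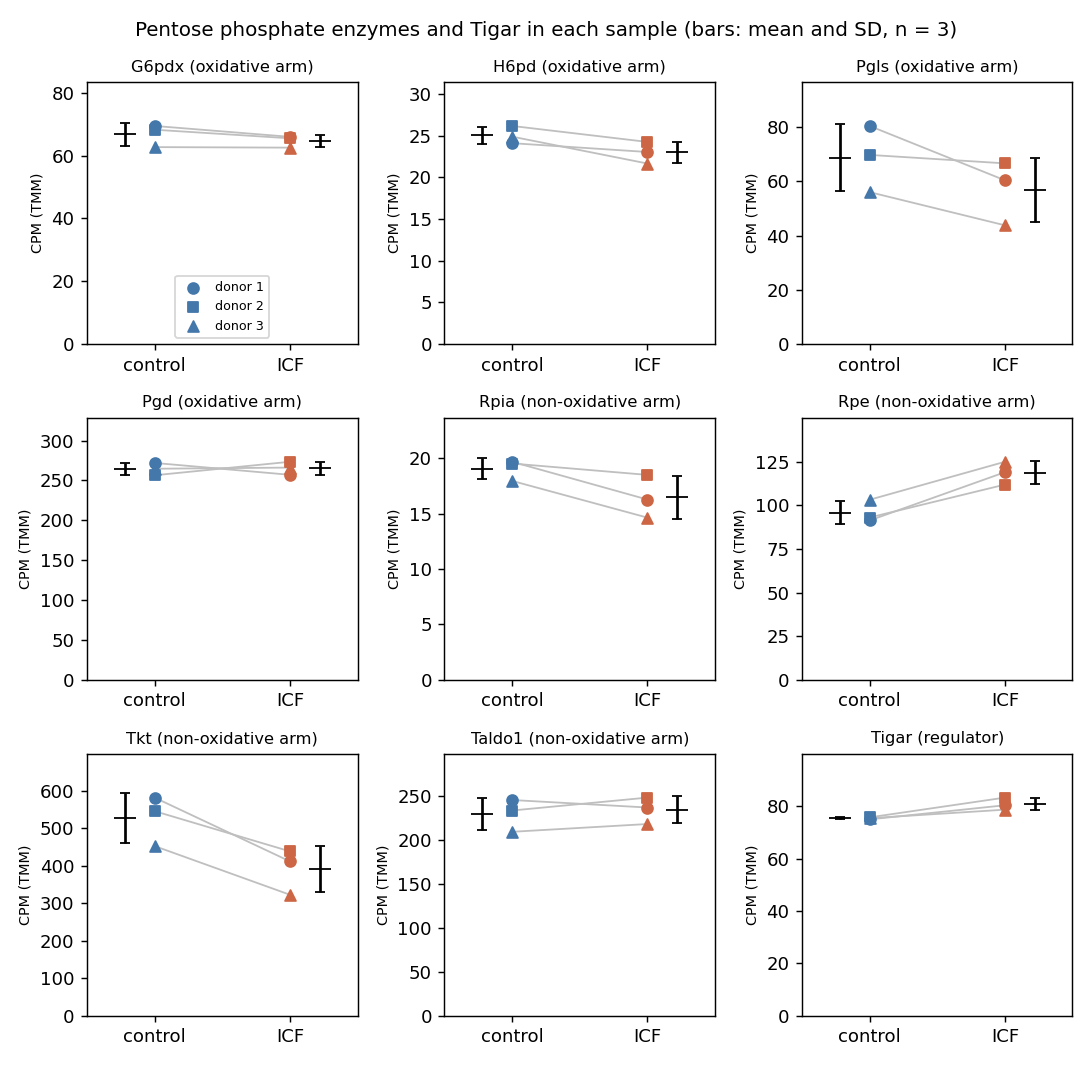
Level of each of the 9 genes in each sample, in TMM-normalized CPM on axes that start at 0, with lines joining samples of the same donor number and bars for the mean and SD of 3 samples. Rpe lies higher and Tkt lower in every ICF sample than in every control sample, while Pgd stays between 257 and 273 CPM throughout.

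The first and rate-controlling step of the oxidative arm is glucose-6-phosphate dehydrogenase, which produces NADPH and is encoded by G6pdx on chromosome X from 74409483 to 74429194 (minus strand; these and the gene coordinates below are of GRCm38 in GENCODE M21). G6pdx was at 69.4, 68.2 and 62.7 CPM in control replicates 1, 2 and 3 and at 66.0, 65.5 and 62.5 CPM with ICF. The groups overlapped, and control replicate 3 lay below ICF replicates 1 and 2. In the fit over all genes its log2 fold change was -0.05 (standard error 0.07, 95% interval -0.19 to 0.10, edgeR adjusted p = 0.7). G6pdx shares 1.94% of the 75-base stretches of its transcript with G6pd2, a retrogene copy, which had 0 to 4 reads per library.

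H6pd, on chromosome 4 from 149979475 to 150009023, encodes the hexose-6-phosphate dehydrogenase of the endoplasmic reticulum lumen. There it performs the first 2 steps of the oxidative arm, of which the second opens the lactone. Its control values were 24.1, 26.2 and 24.9 CPM and its ICF values 23.1, 24.3 and 21.7 CPM. Each ICF sample was below the control of its number, but ICF replicate 2 lay above control replicate 1. Its log2 fold change was -0.12 (standard error 0.08, 95% interval -0.30 to 0.06, edgeR adjusted p = 0.37). Without ICF replicate 3 it was -0.08 (edgeR adjusted p = 0.59).

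Pgls encodes 6-phosphogluconolactonase, which opens the lactone made in the first step, and lies on chromosome 8 from 71592176 to 71601092. It was at 80.4, 69.7 and 56.0 CPM in the control and at 60.4, 66.6 and 43.8 CPM with ICF. The SD within each group was about as large as the difference between the means, which were 68.7 ± 12.2 (SD, n = 3) and 56.9 ± 11.8 CPM (SD, n = 3). Replicate 3 was the lowest in each group, and within donors 1, 2 and 3 the log2 ratios were -0.41, -0.07 and -0.36. The log2 fold change was -0.27 (standard error 0.17, 95% interval -0.65 to 0.11, edgeR adjusted p = 0.35). Leaving out ICF replicate 3 alone gave -0.11 (edgeR adjusted p = 0.65), and leaving out control replicate 1 alone gave -0.14 (edgeR adjusted p = 0.74). With the replicate block it was -0.28 and passed the threshold (edgeR adjusted p = 0.00088), and it passed also when both samples numbered 3 were left out (edgeR adjusted p = 0.0095). In the latter fit 2627 of 16893 genes fell.

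Pgd encodes phosphogluconate dehydrogenase, the second NADPH-producing step, and lies on chromosome 4 from 149149991 to 149166771. Unloaded samples had 272, 257 and 265 CPM and loaded samples 257, 273 and 266 CPM. The samples of both groups covered almost the same range, and the donors differed in sign. Here the log2 fold change was 0.01, with a 95% interval of -0.12 to 0.13 (standard error 0.06, edgeR adjusted p = 0.96).

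In the non-oxidative arm, ribulose 5-phosphate is the branch point. Rpia encodes ribose-5-phosphate isomerase, which turns it into ribose 5-phosphate, and lies on chromosome 6 from 70765720 to 70792232. It was at 19.7, 19.5 and 17.95 CPM in unloaded samples and at 16.3, 18.5 and 14.6 CPM in loaded ones. Each ICF sample was below the control of its number, but ICF replicate 2 was above control replicate 3. A log2 fold change of -0.21 was estimated (standard error 0.10, 95% interval -0.45 to 0.03, edgeR adjusted p = 0.25). With the replicate block it was -0.21 and just under the threshold (edgeR adjusted p = 0.049). It did not pass without ICF replicate 3 (-0.13, edgeR adjusted p = 0.45), nor without both samples numbered 3 (-0.17, edgeR adjusted p = 0.11).

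Rpe encodes ribulose-5-phosphate 3-epimerase, which makes xylulose 5-phosphate from the same substrate, and lies on chromosome 1 from 66700831 to 66719805. It rose from 91.3, 92.9 and 103 CPM in control replicates 1, 2 and 3 to 119, 112 and 125 CPM with ICF. All ICF samples were above all control samples, and replicate 3 was the highest in each group. The group means were 95.8 ± 6.41 (SD, n = 3) and 119 ± 6.54 CPM (SD, n = 3), a 1.24-fold rise. On the log2 scale this was 0.31 (standard error 0.07, 95% interval 0.15 to 0.47, edgeR adjusted p = 0.036), and the log2 ratios within donors 1, 2 and 3 were 0.38, 0.27 and 0.28. With the replicate block the edgeR adjusted p was 2.2e-05, and with DESeq2 the adjusted p was 0.005. The call was lost when any single library other than control replicate 3 was left out. Without control replicate 1, control replicate 2, ICF replicate 1, ICF replicate 2 or ICF replicate 3, the edgeR adjusted p was 0.15, 0.16, 0.12, 0.054 and 0.052, while the log2 fold change stayed between 0.27 and 0.36. Without both samples numbered 3 it was 0.32 (edgeR adjusted p = 1.1e-04), in a fit where 2466 of 16893 genes rose.

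Of the 75-base stretches of the Rpe transcript, 18.5% also occur on the opposite strand in Kansl1l, which overlaps its 3′ end. The libraries were strand-specific, but the strand setting of the counting is not given in the sources used here. Kansl1l had 140 to 173 reads per library, against 2667 to 4129 of Rpe, and its log2 fold change was -0.0045 (edgeR adjusted p = 0.99).

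Tkt encodes transketolase, which moves 2-carbon units between sugar phosphates and lies on chromosome 14 from 30548359 to 30574720. It was at 582, 546 and 453 CPM in the control and at 412, 439 and 323 CPM with ICF. All ICF samples were below all control samples, with ICF replicate 2 and control replicate 3 the closest, and replicate 3 was the lowest in each group. The means were 527 ± 66.7 (SD, n = 3) and 391 ± 60.6 CPM (SD, n = 3), and the log2 ratios within donors were -0.50, -0.32 and -0.49. The log2 fold change was -0.43 (standard error 0.13, 95% interval -0.72 to -0.14, edgeR adjusted p = 0.073). With the replicate block it was -0.43 and fell past the threshold (edgeR adjusted p = 2.2e-08). It also fell with DESeq2 (adjusted p = 0.012), with a looser filter on low counts (edgeR adjusted p = 0.0027) and without both samples numbered 3 (edgeR adjusted p = 5.1e-06). In the last of these fits 2627 of 16893 genes fell, and with the looser filter 1019 of 29738 did. Of the 6 fits that left out 1 library Tkt passed in 1, without control replicate 3 (edgeR adjusted p = 0.032), where 928 of 17034 genes fell. Without control replicate 1, control replicate 2, ICF replicate 1, ICF replicate 2 or ICF replicate 3, the edgeR adjusted p was 0.25, 0.23, 0.15, 0.081 and 0.099. Over these 6 fits the log2 fold change ranged from -0.53 to -0.30, the latter without ICF replicate 3.

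Taldo1 encodes transaldolase, which moves 3-carbon units and lies on chromosome 7 from 141392199 to 141402968. Unloaded samples had 246, 234 and 209 CPM and loaded samples 237, 248 and 218 CPM. The groups overlapped, and replicate 3 was the lowest of each. Its log2 fold change was 0.03 (standard error 0.08, 95% interval -0.14 to 0.21, edgeR adjusted p = 0.84).

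Tigar, on chromosome 6 from 127085116 to 127109557, encodes a phosphatase that lowers fructose 2,6-bisphosphate, an activator of phosphofructokinase, and it is named for its induction by p53. It was at 74.999, 75.763 and 75.451 CPM in the control and at 80.4, 83.3 and 78.7 CPM with ICF. The groups did not overlap, and the control samples lay within a range of 1 CPM. The means were 75.4 ± 0.384 (SD, n = 3) and 80.8 ± 2.33 CPM (SD, n = 3), a difference of 7.16%. A log2 fold change of 0.10 was estimated (standard error 0.06, 95% interval -0.03 to 0.23), which did not pass (edgeR adjusted p = 0.31), nor did it with the replicate block (edgeR adjusted p = 0.17) or with DESeq2 (adjusted p = 0.38).

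**Figure D2:**
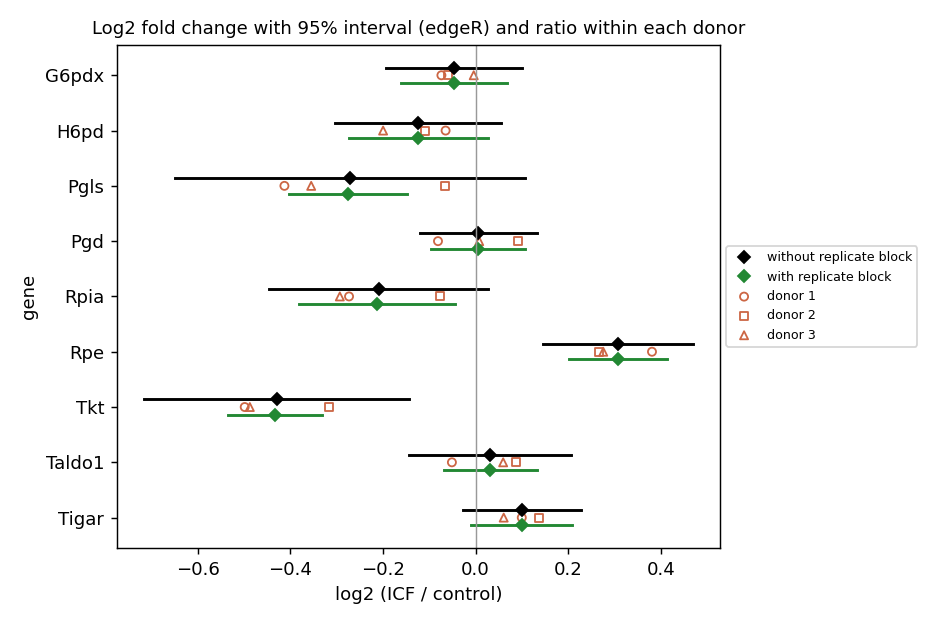
Log2 fold change of ICF against control for each gene, with 95% intervals from edgeR without and with the replicate block, and open symbols for the log2 ratio within each donor number. Rpe (0.31) and Tkt (-0.43) lie on opposite sides of 0 with all 3 donors on the same side, and the intervals of Tkt, Pgls and Rpia narrow with the block.

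As groups, the arms had nearly equal medians. The median log2 fold change was -0.085 over the 4 oxidative genes and -0.089 over the 4 non-oxidative genes, a difference of 0.0038, against a median of 0.0026 over all genes tested. The arms differed in range: from -0.27 to 0.01 in the oxidative arm and from -0.43 to 0.31 in the non-oxidative arm. In each sample, the mean log2 CPM of the oxidative genes minus that of the non-oxidative genes was -0.702, -0.714 and -0.731 in control replicates 1 to 3 and -0.750, -0.740 and -0.757 with ICF. The ICF samples lay below all controls, and the group means differed by -0.033. No test was made because the genes are few and were chosen together.

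Ratios within a library do not depend on how libraries were scaled. For each Tkt read there were 0.157, 0.170 and 0.228 Rpe reads in unloaded samples and 0.289, 0.255 and 0.387 in loaded ones. Every ICF library lay above every control, and replicate 3 was the highest in each group. Per Taldo1 read, Tkt had 2.37, 2.34 and 2.16 reads in unloaded samples and 1.74, 1.77 and 1.48 in loaded ones. The enzymes of these 2 ratios were picked after their values were seen, so no test is given.

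**Figure D3:**
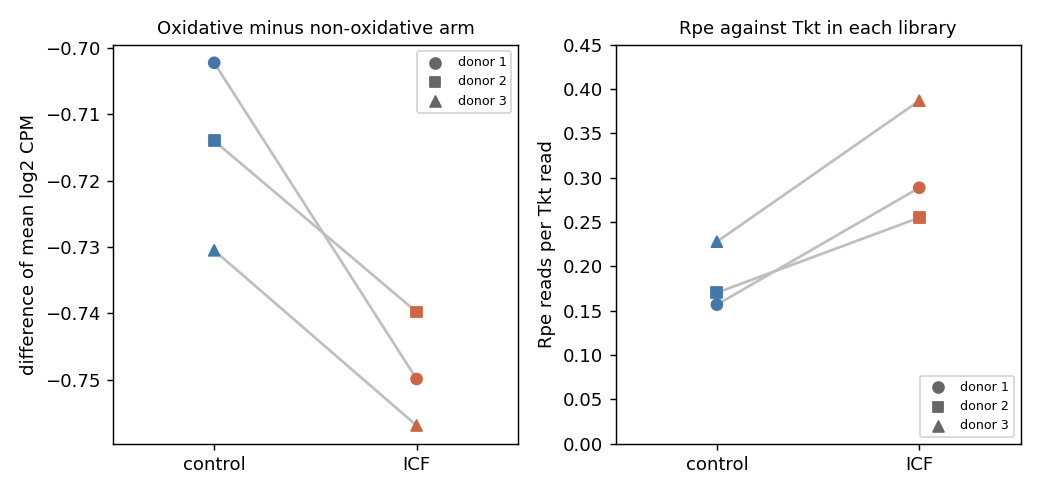
Left, mean log2 CPM of the oxidative genes minus that of the non-oxidative genes in each sample, on an axis that spans less than 0.1 and does not start at 0. Right, Rpe reads per Tkt read in each library on an axis that starts at 0, with lines joining the same donor number; all ICF libraries (0.255 to 0.387) lie above all controls (0.157 to 0.228).

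Levels can be compared between genes only per transcript length. Per kilobase of the principal transcript, Taldo1 had the highest level in the control at 187 ± 15.0 CPM (SD, n = 3), followed by Tkt at 163 ± 20.7, Pgd at 119 ± 3.49 and Pgls at 76.9 ± 13.7. Rpe (35.6 ± 2.38), G6pdx (25.2 ± 1.36), Tigar (20.7 ± 0.105), Rpia (10.4 ± 0.521) and H6pd (5.49 ± 0.229) followed. With ICF the order of the means was the same. The ranges of Taldo1 and Tkt overlapped in the control (170 to 200 and 140 to 181 CPM per kilobase). With ICF those of Tkt (100 to 136) and Pgd (116 to 123) overlapped, and Tkt was at 121 ± 18.8 (SD, n = 3) and Rpe at 44.0 ± 2.43 (SD, n = 3). All other neighbours in the order had separate ranges in both groups. The order depends on the length used. Over all exons of a gene, Pgls moved from rank 4 to rank 7, Rpia and H6pd changed places, and with ICF so did G6pdx and Tigar.

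**Figure D4:**
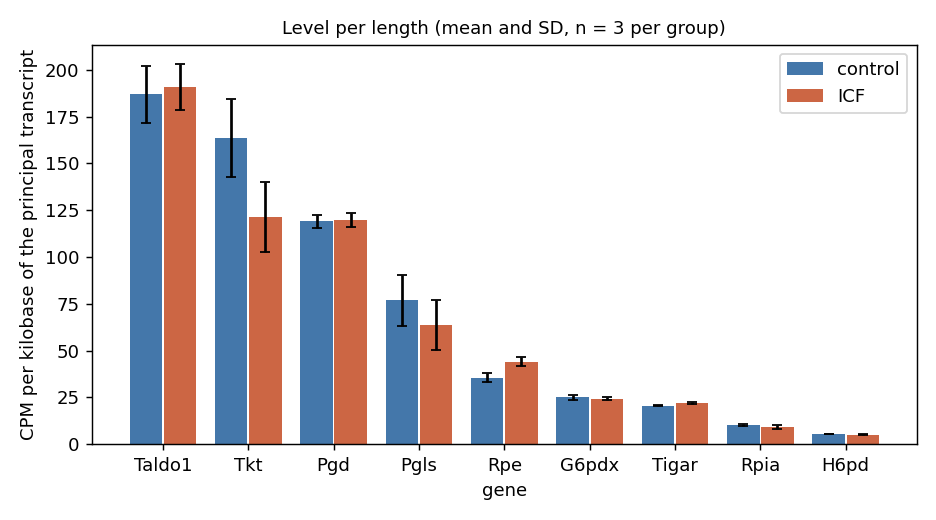
Level per kilobase of the principal transcript for each gene (mean and SD of 3 samples per group, axis from 0), in descending order. Taldo1, Tkt and Pgd stand above 100 CPM per kilobase in both groups and H6pd is the lowest at 5.49 in the control and 5.03 with ICF.

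The genes whose profile over the 6 samples was most like that of Rpe were Ggcx, Nr3c1 and Cdh4, with Pearson r of log2 CPM of 0.999, 0.998 and 0.997 among 11916 genes that averaged 100 counts or more. Since they were chosen for their likeness to Rpe over these same samples, their direction and p-values below restate that choice and are a description. Ggcx, a vitamin K-dependent carboxylase, went from 17.3, 17.6 and 20.6 CPM to 24.9, 22.9 and 27.2 CPM, a log2 fold change of 0.43 (edgeR adjusted p = 0.038). Nr3c1, the glucocorticoid receptor, rose by 0.70 on the log2 scale (edgeR adjusted p = 0.022), and the value of Cdh4, a cadherin, was 0.41 (edgeR adjusted p = 0.063). With 1 library left out, Ggcx passed in 1 of 6 fits (edgeR adjusted p up to 0.17) and Nr3c1 in 3 of 6 (edgeR adjusted p up to 0.11).

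Relatives of the 9 genes were sparse. Tktl2, a transketolase-like gene, was at 1.81, 1.85 and 3.41 CPM in the control and at 1.41, 0.908 and 1.10 CPM with ICF. These groups did not overlap, and the log2 fold change of -1.04 missed the threshold (edgeR adjusted p = 0.073) but passed with the replicate block (edgeR adjusted p = 0.0017). Tktl2 also passed with DESeq2 (adjusted p = 0.031) and with the looser filter (edgeR adjusted p = 0.014), but not with any 1 library left out. Control replicate 3 was the highest sample, and without it the log2 fold change was -0.68 (edgeR adjusted p = 0.13), while without both samples numbered 3 it was -0.65 (edgeR adjusted p = 0.036). Tktl1, another relative of transketolase, was between 0.276 and 0.417 CPM in all libraries (log2 fold change -0.21, edgeR adjusted p = 0.75), and without ICF replicate 3 or control replicate 3 the log2 fold change was -0.12. G6pd2 did not pass the filter.

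In glycolysis, 9 of 15 tested genes for steps that share intermediates with the pathway fell and none rose. The median log2 fold change of this list was -0.79, against 0.0026 over all genes. Aldoc, an aldolase, fell by 2.37 in log2 units, with means of 50.5 ± 13.1 CPM in the control and 9.79 ± 0.852 CPM after loading (SD, n = 3 each, edgeR adjusted p = 0.00051). Pfkfb3, which makes the phosphofructokinase activator that Tigar removes, fell by 1.41 (edgeR adjusted p = 0.0017), and Tpi1, triosephosphate isomerase, by 1.35 (edgeR adjusted p = 0.00036). Among the phosphofructokinases, Pfkl fell by 1.31 (edgeR adjusted p = 0.00083) and Pfkp fell by 1.21 (edgeR adjusted p = 0.00011). Pfkm, another of them, had -0.19 and missed the threshold (edgeR adjusted p = 0.087). Pfkfb1, Pfkfb2 and Pfkfb4, the relatives of Pfkfb3, did not pass either, with -0.32, 0.01 and 0.11. Pfkm and these relatives are named after their values were seen. Gpi1, the isomerase that joins glucose 6-phosphate to fructose 6-phosphate, fell by 1.07, with means of 1185 ± 167 CPM in the control and 565 ± 27.7 CPM after loading (SD, n = 3 each, edgeR adjusted p = 0.00083). With 1 library left out, 8 or 9 genes of this list fell, and with the replicate block 11 did. Fbp1, a fructose bisphosphatase, had 2 to 16 reads per library and was not tested. Pfkp, Aldoc, Tpi1 and Aldoa are among the genes the study itself picked from these samples, so this list is not independent evidence of its direction.

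Of 13 tested genes that make NADPH outside the pathway or act next to such steps, 7 fell and none rose, with a median of -0.34. Me1, cytosolic malic enzyme, is a main NADPH source outside the pathway and one of the genes the study itself picked from these samples. It was at 125, 127 and 129 CPM in the control and at 69.7, 75.9 and 74.4 CPM with ICF, and fell by 0.79 on the log2 scale (standard error 0.06, edgeR adjusted p = 0.00036). Idh1 and Idh2, the NADP-dependent isocitrate dehydrogenases of cytosol and mitochondria, fell by 0.36 (edgeR adjusted p = 0.011) and 0.52 (edgeR adjusted p = 0.019). The folate enzymes Mthfd1l and Mthfd2 fell by 0.44 (edgeR adjusted p = 0.005) and 0.37 (edgeR adjusted p = 0.012). Mthfd2 is a mitochondrial folate dehydrogenase that mainly uses NAD, while Mthfd1l, a formyltetrahydrofolate synthetase, makes no NADPH itself. Of the other 2 that fell, Me2 is a mitochondrial malic enzyme that mainly uses NAD, and Nadk2 makes NADP. Thus Mthfd1l, Mthfd2, Me2 and Nadk2, among the 7 that fell, are not NADPH-producing enzymes in the main. The folate enzyme Mthfd1 was at 331 to 362 CPM in the control and at 366 to 375 CPM with ICF (log2 fold change 0.08, edgeR adjusted p = 0.41). Me2, Nadk2 and Mthfd1 are named after their values were seen. Me3 had 0 to 4 reads per library and was not tested. With the replicate block 7 fell and none rose, and with 1 library left out 2 (without control replicate 2) to 7 fell. Me1 and Mthfd1l passed in all 6 of these fits, Idh1 in 4, Idh2 and Mthfd2 in 3, and Me2 and Nadk2 in 2. In the blocked fit none of the 3 NADPH-producing enzymes of the pathway, G6pdx, H6pd and Pgd, passed.

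Of 13 NADPH-using reductases tested, 2 fell and none rose. Txnrd3, a thioredoxin-glutathione reductase, fell by 0.63 (edgeR adjusted p = 0.024) and passed in 3 of the 6 fits that left out 1 library. The median was -0.022, and with the replicate block 2 rose and 4 fell. Gsr, glutathione reductase, was at 145, 149 and 144.5 CPM in the control and at 168, 164 and 163 CPM with ICF. Its groups did not overlap, and the log2 fold change of 0.18 missed the threshold (edgeR adjusted p = 0.077) and passed with the block (edgeR adjusted p = 0.0066). Gsr also passed with DESeq2 (adjusted p = 0.035), but not with the looser filter (edgeR adjusted p = 0.17) or with any 1 library left out. None of 10 antioxidant genes passed (median 0.12), a list of Nfe2l2 (which encodes Nrf2), its repressor Keap1 and glutathione, thioredoxin and other genes linked to Nrf2. With the block 4 rose, which were Nfe2l2 and Keap1 themselves, Gclm of glutathione synthesis and Srxn1, sulfiredoxin.

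A further 11 tested genes act in ribose salvage, nearby sugar phosphate steps or the synthesis of phosphoribosyl pyrophosphate (PRPP), the ribose donor for nucleotides. Of these 2 fell and none rose, with a median of -0.00044, and with the replicate block 2 rose and 3 fell. Both that fell were phosphomutases. Pgm1, which mainly links glucose 1-phosphate to glucose 6-phosphate, fell by 1.51, from 175, 176 and 106 CPM to 59.2, 54.4 and 46.2 CPM (edgeR adjusted p = 0.0027). Pgm2, which mainly acts on pentose phosphates, fell by 0.41 (edgeR adjusted p = 0.0043). The PRPP synthetases Prps1 and Prps2 had log2 fold changes of -0.34 (edgeR adjusted p = 0.078) and 0.36 (edgeR adjusted p = 0.17). The block brought both past the threshold: Prps1 fell (edgeR adjusted p = 3.6e-06) and Prps2 rose (edgeR adjusted p = 0.00014). Both also passed with the looser filter (edgeR adjusted p = 0.015 and 0.041), and Prps1 with DESeq2 (adjusted p = 0.024). With 1 library left out, Prps1 passed in 1 of 6 fits and Prps2 in none. Without ICF replicate 3 the log2 fold change of Prps2 was 0.18 (edgeR adjusted p = 0.32), and with DESeq2 its adjusted p was 0.11. None of 16 genes for purine and pyrimidine synthesis from PRPP passed (median -0.045), and with the block 1 rose and 3 fell.

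Tigar was set beside 20 genes known as p53 targets, of which 16 rose and none fell, with a median log2 fold change of 0.65. Trp73 rose by 1.66 (edgeR adjusted p = 0.0041), Zfp365 by 1.55 (edgeR adjusted p = 0.00023), Trp53inp1 by 1.26 (edgeR adjusted p = 0.009) and Plk2 by 1.18 (edgeR adjusted p = 0.0025). Cdkn1a, the cell cycle inhibitor p21, rose by 0.72 (edgeR adjusted p = 0.031), and Mdm2, the ligase that degrades p53, rose by 0.78 (edgeR adjusted p = 0.03). With 1 library left out, 8 (without control replicate 2) to 17 of the 20 rose. Trp73, Zfp365 and Plk2 passed in all 6 of these fits, Trp53inp1 and Cdkn1a in 4 (not without control replicate 1 or 2), and Mdm2 in 3 (not without control replicate 1, control replicate 2 or ICF replicate 1). In the blocked fit 17 rose and 1, Sesn1, fell. The log2 fold change of Tigar was 0.10 (95% interval -0.03 to 0.23), and the 4 genes of the list that did not pass, Bax, Bbc3, Fas and Sesn1, had 0.03, 0.31, 0.35 and -0.21. Several of these 20 genes were picked by the study itself from these samples, so the list is not independent evidence of its direction.

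**Figure D5:**
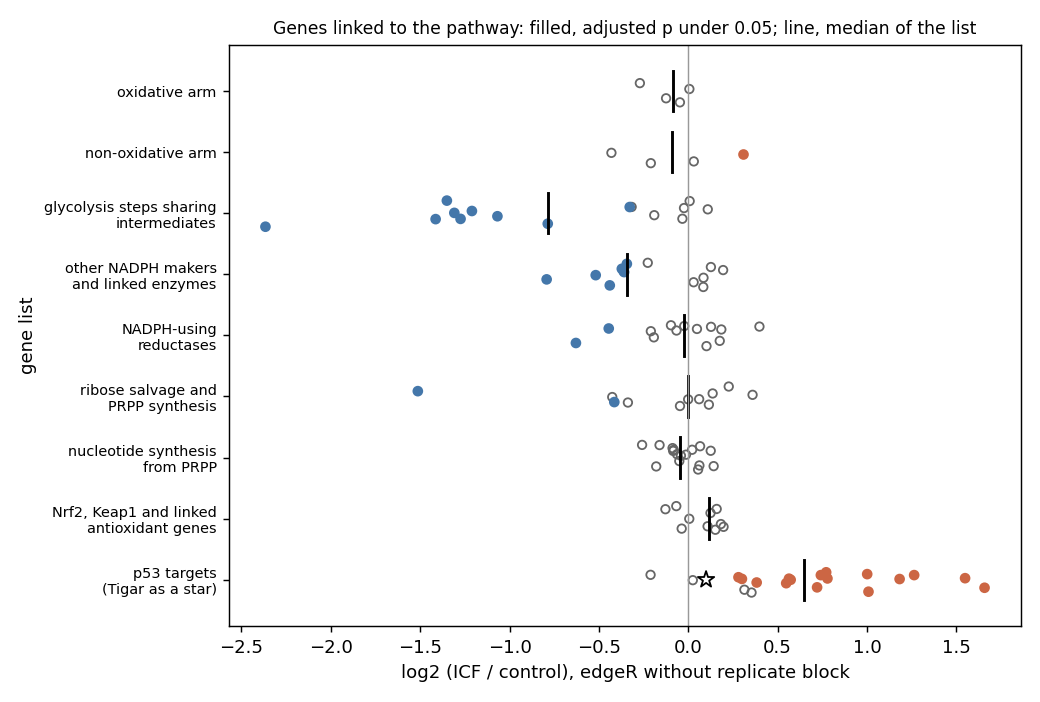
Log2 fold change (ICF against control, edgeR without the block) of each tested gene in the pathway and in the lists linked to it, filled where the adjusted p is under 0.05, with a vertical line at each list's median and Tigar drawn as a star. The medians of both arms lie close to 0, the glycolytic list lies at -0.79 and the p53 list at 0.65.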

How the data were processed

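RNA sequencing libraries of 3 ICF and 3 control samples were made with a strand-specific kit and read as single ends of 75 cycles. Trimmomatic removed low-quality reads, HISAT2 aligned the rest and HTSeq assigned them to genes. The authors deposited the resulting whole-number counts, not normalized. Per the labels, the processing notes list GRCm38 and hg38 without saying what each was used for. The annotation and strand setting are not given in the sources used here. Each file ends in 5 summary rows that name no gene. They hold 38.1% to 40.3% of reads (29.5% to 31.3% not uniquely aligned) and were left out, which lowers the counts of genes with near-identical copies.

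GENCODE M21 held 50376 of the identifiers. Counts were tested with edgeR 4.0.16 in R 4.3.3 (quasi-likelihood test, TMM, default filter, no block). Standard errors and 95% intervals are those implied by its F statistic. Pairing comes from the donor numbers in the labels. Across genes the deviations from the group mean had r of 0.15, 0.197 and 0.376 for equal numbers and -0.343 to 0.263 for unequal ones. Control replicate 1 had a higher r with ICF replicate 2 (0.263) than with ICF replicate 1. For control replicate 2 with ICF replicate 1 the r was 0.174. These values set apart number 3 as a pair, but not numbers 1 and 2. Alternatives were the donor number as a replicate block, RLE size factors, DESeq2 1.42.0, a looser filter (1 count in any sample) and a stricter one (10 counts in every sample), each library left out, ICF replicate 3 divided by 4, and both samples numbered 3 left out. The fits were tested on simulated data. The genes and lists were chosen with earlier results of these data known. Named genes are the 9 of the pathway, up to 4 past the threshold per list by size of change, and 12 fixed names, and other names that spell out small counts were added after the values were seen. The p-values measure the spread between these samples, which may be technical. Some genes of the lists are counted but not reported here by name.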

Additional observations from a re-analysis of the deposited data

How the results depend on the processing

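Over 117 refitted values of the 9 genes, no value past the threshold turned its direction (Pgd and Taldo1, near 0, changed sign with some libraries left out), 104 kept their side of the threshold, 8 newly passed it (Tkt, Pgls and Rpia) and 5, all of Rpe, no longer passed. With libraries left out, 0 to 1 of the 9 genes rose and 0 to 2 fell, the 2 being Tkt and Pgls without both samples numbered 3. Genes that fell numbered 1 with the looser filter, 1 with DESeq2 and 3 with the replicate block. The block changed no other call among them. Over all genes, DESeq2 gave 943 up and 1109 down and the replicate block 2445 up and 2561 down. The looser filter gave 841 up and 1019 down of the 29738 genes it kept. With libraries left out, between 85 genes (without control replicate 2) and 2466 genes (without both samples numbered 3) rose, and between 215 and 2627 fell. Before adjustment, 4277 genes had an edgeR p under 0.05. Of the genes in the lists linked to the pathway, 16 rose and 20 fell; 26 rose and 30 fell with the replicate block, and with libraries left out 8 to 28 rose and 13 to 30 fell. The difference between the median log2 fold changes of the arms, 0.0038, ranged from -0.029 to 0.046 with libraries left out. The cause of these changes was not tested. Where 1 library of a group is left out, 2 samples carry its spread, and Rpia, with a mean of 550 reads per library, is the least deeply covered of the 9 genes. For 36 tested genes outside the pathway, chosen by the rule for named genes or added to it, no value past the threshold turned its direction over 466 refits, 399 kept their side of the threshold, 19 newly passed and 48 no longer passed.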
